A study of Macaca mulatta with 30 samples.

Results

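Within cohort 5 of a study of long-term ethanol drinking in male rhesus macaques, 4 very heavy drinkers (VHD) were compared with 3 heavy drinkers (HD). These 7 libraries, 1 per animal, were taken by their drinking category and cohort labels from the 30 libraries of the study. Each library measured total RNA of cortical area 32 by RNA sequencing. All animals, in every category, had been induced to drink 4% ethanol and then had open access to it for over 12 months, 22 h per day, so no animal was alcohol-naive. VHD animals took a daily average above 3 g/kg, with over 4 g/kg on at least 10% of the open access days. HD animals took at least 3 g/kg on at least 20% of days. The cohort's mean age was 5.63 years when induction began and 7.15 years at the end, and the labels give it per cohort, not per animal. All animals were male and no genotype was given. Cohort 5 also holds 1 binge drinker (BD, at least 2 g/kg on at least 55% of days, with a yearly criterion on blood ethanol), which entered no test and whose value is given beside some results. The same contrast in other animals came from cohort 7a, with 2 VHD and 2 HD libraries and a mean age of 5.70 years at the end. Intake per animal was not used here, so the contrast is between 2 neighbouring ranges of intake and not between drinking and abstinence.

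Area 32 is a medial prefrontal region that takes part in the control of drinking and other motivated behaviour. Its tissue holds excitatory and inhibitory neurons, astrocytes, microglia, blood vessels and oligodendrocytes, the cells that wrap axons in myelin. Myelin is built from a few abundant membrane proteins, among them myelin basic protein (MBP), and white matter loss is a known feature of long-term heavy drinking in humans.

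The values are reads per gene that the authors scaled to a common upper quartile, called scaled reads below. The libraries held 6.58 to 13.5 M reads in VHD and 5.92 to 11.9 M reads in HD, so the depths of the groups overlapped. Correlations of log2 values between pairs of the 7 libraries were 0.973 to 0.985 across genes. The first principal component held 25.6% of the variance and did not separate the groups: HD replicates 2 and 3 lay at its opposite ends. Markers of neurons, astrocytes, oligodendrocytes, microglia and vessels were measured in the tissue, whereas 9 blood cell markers, hemoglobin HBB among them, stayed at or below 13.9 scaled reads in each library. The HD libraries are numbered 2, 3 and 9 in the labels and the VHD libraries 1, 12, 17 and 32.

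No gene passed the test between VHD and HD. Of 15521 genes, 12662 reached 10 scaled reads in at least 3 of the 7 libraries, and 0 of these (0%) had an adjusted p under 0.05 in limma, where the smallest adjusted p was 1. Unadjusted p fell under 0.05 for 293 genes (2.31%), of which 182 were higher in VHD (1.44% of the genes tested) and 111 lower (0.877%). edgeR and DESeq2, run on the whole reads recovered from the scaled values, gave 0 genes at an adjusted p under 0.05 and 296 and 253 at an unadjusted p under 0.05. The VHD minus HD difference on the log2(scaled reads + 1) scale had a median of -0.00199, with the 10th and 90th percentiles at -0.19 and 0.23. It was above 0 for 49.4% of genes and below 0 for 50.6%. All 4 VHD values lay above all 3 HD values for 229 genes (1.81%) and below them for 210 (1.66%). The values that follow are therefore descriptions of 7 animals. Each difference is a log2 difference ± SE from limma, and the adjusted p of every gene named was 1 in limma.

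Genes of oligodendrocytes and myelin were the list with the largest median difference among the 29 lists that had tested members. All 18 measured members were higher in VHD, beside 49.4% of all genes, with a median of 0.70 beside -0.00199. Unadjusted p was under 0.05 for 10 of 18, beside 1.44% of all genes in that direction, and the groups did not overlap for 5 of 18, beside 1.81%. None of the 18 had an adjusted p under 0.05 in limma, edgeR or DESeq2. In bulk tissue, a larger share of oligodendrocytes and more of this RNA per cell cannot be told apart.

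MAL, which sorts lipids and proteins to the myelin membrane, was at 50.9, 24.9, 53.0 and 41.7 scaled reads in VHD replicates 1 to 4 against 20.0, 23.2 and 11.5 scaled reads in HD, a difference of 1.18 ± 0.35. The groups were apart, although VHD replicate 2 came close to HD replicate 2.

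Structural proteins of myelin varied in how far the groups separated. MAG, a receptor-like protein on the inner face of myelin, was at 274, 223, 597 and 236 in VHD and 218, 207 and 99.5 in HD (0.88 ± 0.33). CLDN11, the tight junction protein of myelin, was at 191, 154, 276 and 218 against 127, 100 and 153 (0.71 ± 0.21). Both were without overlap, yet in both the lowest VHD value stood close to the highest HD value. MOBP was at 589, 210, 647 and 221 in VHD against 185, 290 and 147 in HD, so its VHD libraries form a high and a low pair and the groups overlapped (0.87 ± 0.38). MOG, a surface glycoprotein of myelin, was higher by 0.72 ± 0.38. MBP was at 1190, 656, 1100 and 533 against 612, 823 and 450, a difference of 0.43 ± 0.27 with overlapping groups.

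Among enzymes and regulators of oligodendrocytes the pattern was graded. MYRF, the transcription factor that switches on myelin genes, was higher by 0.85 ± 0.28, UGT8, which makes the myelin lipid galactosylceramide, by 0.69 ± 0.26, and CNP, an enzyme of non-compact myelin, by 0.56 ± 0.22. ERMN and OPALIN, both made by mature oligodendrocytes, were higher by 0.99 ± 0.28 and 0.90 ± 0.35. SOX10, the lineage factor present from precursors onward, differed by 0.24 ± 0.22, ASPA by 0.25 ± 0.23, CDK18 by 0.11 ± 0.24 and the iron carrier TF by 0.05 ± 0.14. The sign for TF turned to -0.006 without VHD replicate 2 and that for CDK18 to -0.003 without HD replicate 3.

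**Figure D1:**
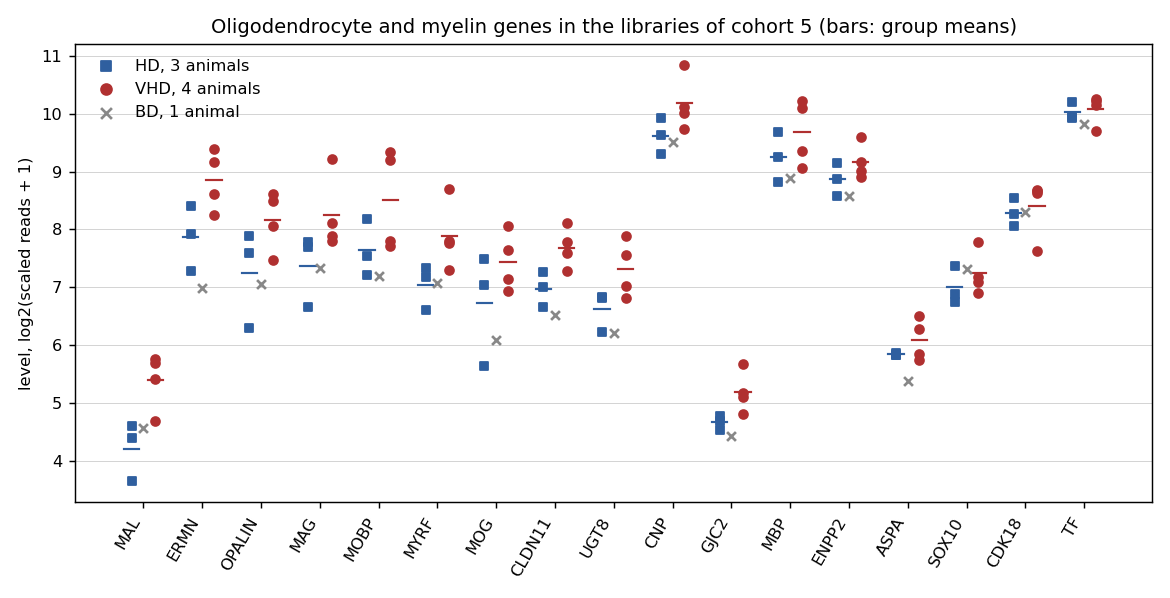
Level of 17 oligodendrocyte and myelin genes as log2(scaled reads + 1), with 1 point per animal of cohort 5 (squares HD, circles VHD, crosses the BD animal) and bars at the group means. The VHD mean is above the HD mean for each gene shown, and the genes are ordered by the difference, from MAL at 1.18 to TF at 0.05.

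The libraries did not contribute evenly. VHD replicate 3 was the highest of the 7 for 15 of 18 genes and HD replicate 3 the lowest for 14 of 18. VHD replicates 2 and 4 exceeded every HD library for 10 and 9 of the 18, against 15 for replicate 1 and 17 for replicate 3. For these counts per library the shares over all genes were not counted, so they only describe the list. Summed over 17 members, the scaled reads were 6995, 5594, 9150 and 5270 in VHD and 4973, 5537 and 3761 in HD. In this sum of 17 the groups overlapped between VHD replicate 4 and HD replicate 2. The sum over all 18 members, and whether its groups overlap, is not reported here. Leaving out 1 library at a time kept the list median between 0.44 and 0.81. Without HD replicate 3 the median was 0.44, 17 of 18 genes were higher and 4 had an unadjusted p under 0.05 in place of 10. That number was 5 without VHD replicate 3 and 4 to 13 over the 7 fits. Of all 12662 genes tested, 430 had an unadjusted p under 0.05 in limma without HD replicate 3. There were 263 such genes without VHD replicate 3, 244 to 445 over the 7 fits, and 293 with all 7 libraries. The median over all genes was -0.00109 without HD replicate 3.

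The BD animal of cohort 5 summed to 3970, lay below all 4 VHD libraries for 15 of 18 genes and was nearer the HD mean for 17 of 18. These counts describe the myelin level of 1 library, and the shares over all genes were not counted. The VHD and HD labels of cohort 7a did not separate the list. There the VHD sums were 4007 and 4526 and the HD sums 4692 and 3803, so the groups interleaved. In that cohort 9 of 18 genes were higher in VHD, beside 49.9% of all genes, with a median of -0.02. Unadjusted p in limma was under 0.05 for 1 of the 18 (CLDN11, 0.60 ± 0.21), beside 2.93% of all genes. The difference between the cohorts was tested gene by gene in limma. There 1 of the 18 had an unadjusted p under 0.05, beside 1.97% of all genes, with 0 at an adjusted p under 0.05. That gene was MAL, at 1.24 ± 0.54. Cohort 4, which is older and has no VHD animal, reached 9061 in its LD (low drinker) animals and 13838 in its BD animals, so sums above that of VHD replicate 1 were also found outside this category.

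**Figure D2:**
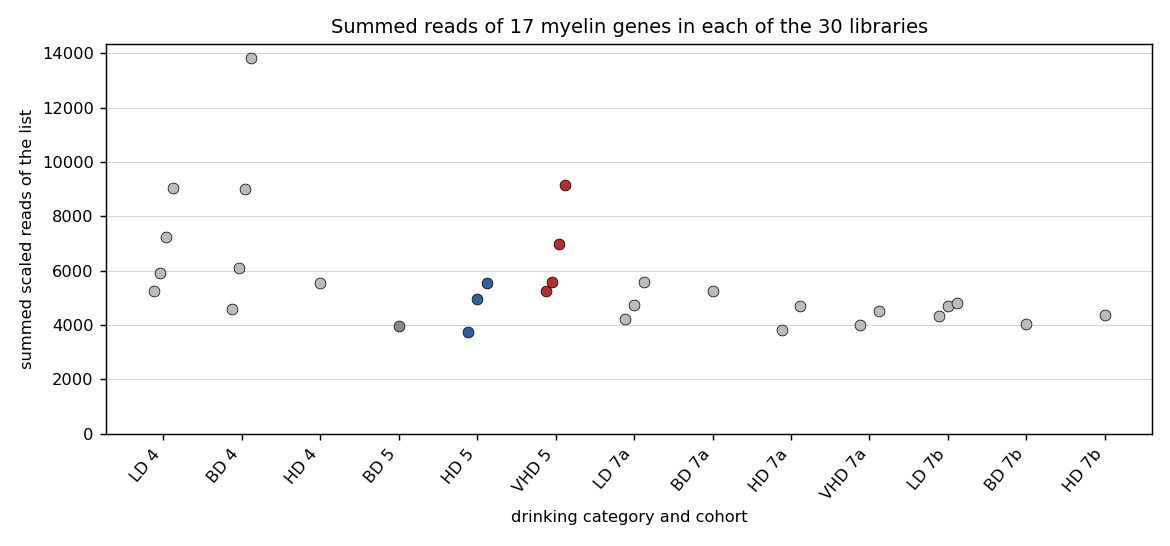
Summed scaled reads of 17 oligodendrocyte and myelin genes (vertical axis) in each of the 30 libraries, by drinking category and cohort, with 1 point per animal. HD (blue), VHD (red) and BD (dark grey) of cohort 5 are coloured and all other groups are light grey. The VHD animals of cohort 5 sit between 5270 and 9150, those of cohort 7a at 4007 and 4526.

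Other cell types showed smaller differences. Of 9 oligodendrocyte precursor markers 8 were higher (beside 49.4% of all genes), with a median of 0.08, which was 0.01 without VHD replicate 1. With the myelin level as a term in a fit over 30 libraries, an alternative added after the data were seen, the median was -0.03 and 6 of the 9 were lower. VCAN, the proteoglycan versican, was highest among them at 553, 410, 471 and 485 in VHD against 392, 304 and 331 in HD (0.49 ± 0.14, no overlap). PDGFRA, the growth factor receptor that defines precursors, was at -0.01 and OLIG2 at 0.09. Of 15 astrocyte markers 13 were higher (beside 49.4%), with a median of 0.12, 1 at an unadjusted p under 0.05 (beside 1.44% of all genes in that direction) and 2 without overlap (beside 1.81%). AQP4, the water channel of astrocyte endfeet, was at 5310, 4540, 3550 and 4620 against 3360, 3530 and 3480, which gave 0.37 ± 0.12. VHD replicate 3 barely exceeded HD replicate 2. GFAP, the filament protein of reactive astrocytes, differed by 0.08 ± 0.14, and its sign turned without VHD replicate 1.

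The medians were 0.06 for 12 excitatory and -0.04 for 14 inhibitory neuron markers, and no member of either list had an unadjusted p under 0.05. The excitatory median was -0.09 without HD replicate 3. GAD1, which makes GABA, stood at 2750, 3400, 3090 and 3380 in VHD against 2950, 3150 and 3380 in HD, a difference whose 95% interval ran from -0.23 to 0.22. Microglia markers split into 9 higher and 9 lower, with a median of -0.02. TMEM119 was lower by 1.05 ± 0.47 at values of 4.15 to 27.6, whereas C1QB, a complement subunit, was higher by 0.48 ± 0.24, so these markers did not move together. The medians were -0.03 for 13 endothelial and 0.002 for 19 mural and fibroblast markers, but both moved with single libraries. Without HD replicate 3 they were 0.14 and 0.55, and without HD replicate 2 they were -0.10 and -0.21. HD replicate 3 had the highest summed mural and fibroblast reads of the 7, at 12690, and the lowest myelin sum, and the part of this in the differences was not tested.

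**Figure D3:**
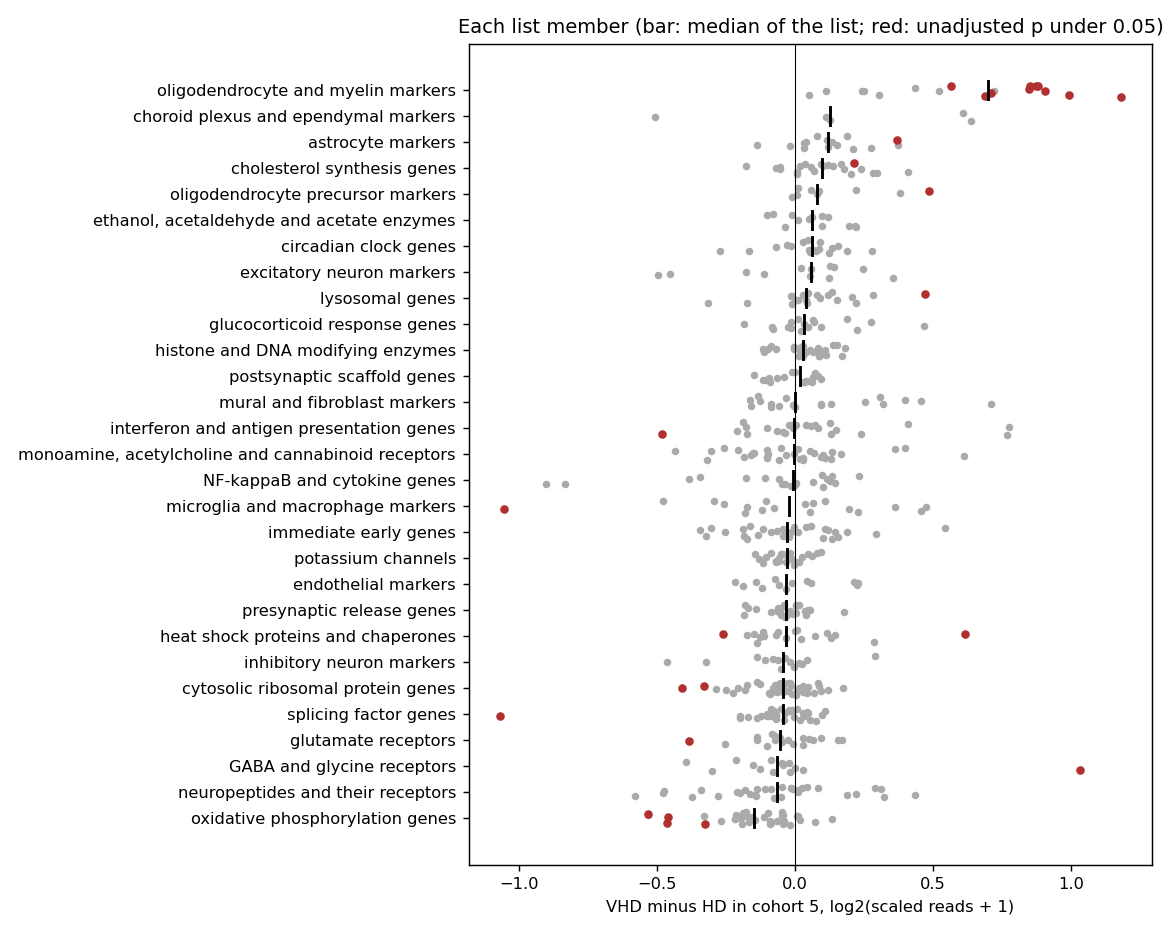
VHD minus HD difference on the log2(scaled reads + 1) scale (horizontal axis) for each tested member of 29 gene lists, with 1 point per gene, a bar at the list median and red for an unadjusted p under 0.05. The myelin list has all 18 points above 0 and a median of 0.70, and the lowest median is that of oxidative phosphorylation at -0.15.

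The 12 genes with the smallest p among those higher in VHD included COL4A2, TMEM139, COL9A2, CCDC111, MAMDC4, HSPA2, SIRPB1, BPHL, PLEKHH1, SH3TC2 and MYBPH. The groups did not overlap for any of the 12, beside 1.81% of all genes in that direction. Since the 12 were picked by the same values, little overlap follows from the choice itself. COL4A2 encodes a chain of type IV collagen, the network of basement membranes around vessels, and lies on chromosome 13 at 91715384 to 91915335 of the annotation used by the authors. It was at 1210, 1490, 1540 and 1340 in VHD and at 949, 982 and 967 in HD, the smallest p of all genes (0.52 ± 0.11). The 3 HD values lay close together, and all 48 exons of the gene, each with 5 scaled reads in at least 3 libraries, were higher in VHD, by 0.03 to 1.02 on the log2 scale. These exons are parts of the gene total by which COL4A2 was picked. COL4A1, chosen after its values were seen because its product pairs with that of COL4A2, differed by 0.17 ± 0.17. In the other 23 libraries COL4A2 ran from 931 to 2340 with a median of 1330, so the HD animals were at the low end of the study, and the BD animal at 1370 was within the VHD range.

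TMEM139, a membrane protein, was at 27.3, 37.4, 32.5 and 29.1 in VHD against 13.3, 10.8 and 15.3 in HD (1.21 ± 0.30). Here too the 23 other libraries, with a median of 27.1, lay near the VHD level. CCDC111, also called PRIMPOL, is a primase that restarts stalled DNA replication. It was at 300, 263, 292 and 421 against 201, 173 and 215 (0.68 ± 0.17). All 14 of its exons, parts of the same gene total, were higher. HSPA2, an HSP70 chaperone, was at 160, 156, 192 and 201 against 106, 104 and 128 (0.65 ± 0.16). The mitochondrial hydrolase gene BPHL differed by 0.64 ± 0.17. MAMDC4 was at 36.4 to 74.4 against 20.8 to 23.7 (1.16 ± 0.29), spread so thinly that none of its 27 exons reached 5 scaled reads in 3 libraries.

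COL9A2 encodes a chain of type IX collagen and was at 664, 569, 622 and 516 against 335, 389 and 475 (0.58 ± 0.14). SH3TC2, known for its role in Schwann cell myelin, was at 270, 205, 322 and 185 against 146, 167 and 122 (0.73 ± 0.20). GJB1, the gap junction protein connexin 32 of myelinating cells, was among the 5 largest differences, at 32.1, 18, 67.9 and 19.9 against 13.3, 9.27 and 8.42 (1.47 ± 0.44). In each of SH3TC2, GJB1 and PLEKHH1 (747, 696, 1070 and 626 against 549, 531 and 402), VHD replicate 3 was the highest library, as in the myelin list. COL9A2 was highest in VHD replicate 1, and among HD animals highest in replicate 3, which had the lowest myelin sum. The fit over all 30 libraries was run with and without the mean myelin level, which itself differed between VHD and HD, as a further term. With that term the difference went from 0.73 to 0.09 for SH3TC2, from 1.47 to 0.60 for GJB1, from 0.65 to 0.25 for PLEKHH1, from 0.58 to 0.22 for COL9A2, from 0.65 to 0.36 for HSPA2 and from 3.49 to 2.54 for SIRPB1. It went from 0.64 to 0.53 for BPHL, from 0.71 to 0.67 for MYBPH and from 1.16 to 1.12 for MAMDC4. It went from 0.52 to 0.82 for COL4A2, from 1.21 to 1.34 for TMEM139 and from 0.68 to 0.73 for CCDC111. Whether the myelin level accounts for any of these differences was not tested.

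The largest difference upward was in SIRPB1, a receptor of myeloid cells, on chromosome 15 at 34381965 to 34400972. It was at 48.1, 48.4, 114 and 48.3 in VHD and at 38.2, 3.09 and 0 in HD, while the BD animal was at 0 (3.49 ± 0.89). Nearly all of its reads lay in 1 of 5 exons, of 354 bases, at 48.2, 47.3, 111 and 50.1 in VHD and 37.8, 1.52 and 0 in HD. HD replicate 1 thus stood near the VHD animals and the other two HD animals near 0. Without HD replicate 1, SIRPB1 had a difference of 4.91 and became the single gene with an adjusted p under 0.05 in limma (0.0344). Without HD replicate 3 the SIRPB1 difference was 2.27. Because of its low HD values the size depends on the scale: the SIRPB1 difference was 4.24 with a pseudocount of 0.25, 2.59 with 4, and 2.13 in edgeR. In the 23 other libraries it ran from 0 to 87.2 with a median of 28.8, and both HD animals of cohort 7a were at 0 with the VHD animals at 0 and 2.10. The other genes in the top 5 by size were NOX4, a hydrogen peroxide producing oxidase, at 10.4 to 15.2 against 1.54 to 6.89, and EBI3, a cytokine subunit, at 5.96 to 13.8 against 2.3 to 4.16, both at low read numbers. NOX4 and EBI3 reached the filter of 10 scaled reads only in VHD libraries, so the filter itself favours a higher VHD value for them.

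Among genes lower in VHD, SNRPC had the smallest p, followed by ASPN, OVGP1, ATP5F1, KLK7, FSTL5, TCEANC, AMACR, CEP57L1, PTX4, NDUFA4 and EPHA6. The groups did not overlap for 8 of these 12, beside 1.66% of all genes in that direction. Here too the genes were picked by the same values, so little overlap follows from the choice itself. SNRPC, which belongs to the U1 particle of the splicing machinery, stood at 26.4, 26.3, 27.9 and 25.2 in VHD against 54.9, 47.9 and 68.9 in HD (-1.07 ± 0.24). The VHD values lay close together, but its exons did not share this evenness. In exon 6 VHD replicate 1 was at 0 and HD replicate 2 at 4.55, below the 5.56 to 6.86 of the other VHD libraries and far below the 23.8 and 29.3 of the other HD libraries. ASPN, the matrix proteoglycan asporin, was at 30.2, 23.5, 16.7 and 37.7 against 50.7, 61.8 and 88.8 (-1.30 ± 0.31). KLK7, a secreted serine protease, was at 160, 140, 242 and 111 against 332, 222 and 301 (-0.84 ± 0.24), with VHD replicate 3 above HD replicate 2.

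FSTL5, a secreted follistatin-like protein, was at 772, 754, 758 and 796 against 913, 1040 and 987, a small difference with little spread (-0.34 ± 0.10). AMACR, which handles branched-chain fatty acids in peroxisomes, was at 152, 144, 99.5 and 78.8 against 208, 226 and 163 (-0.78 ± 0.23). EPHA6, an ephrin receptor of neurons, was at 326, 277, 260 and 246 against 319, 400 and 405 (-0.43 ± 0.14). TCEANC and the pentraxin gene PTX4 were lower by 0.69 ± 0.20 and 0.88 ± 0.28 on the log2 scale, both without overlap, and CEP57L1 by 0.55 ± 0.17 with overlap. Among the 5 largest differences downward were BTNL9 (3.72 to 18.9 against 20.7 to 26.3) and STYXL1 (2.77 to 9.30 against 10.7 to 14.1). SCEL (6.60 to 13.8 against 15.3 to 29.9) was among them too, and each of these genes rests on few reads. STYXL1 reached the minimum of the gene filter only in HD libraries, so the filter itself favours a lower VHD value for this gene. SCEL turned to 0.079 in a fit over 30 libraries with category and cohort as terms, which pools the VHD and HD animals of cohort 5 with those of cohort 7a.

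**Figure D4:**
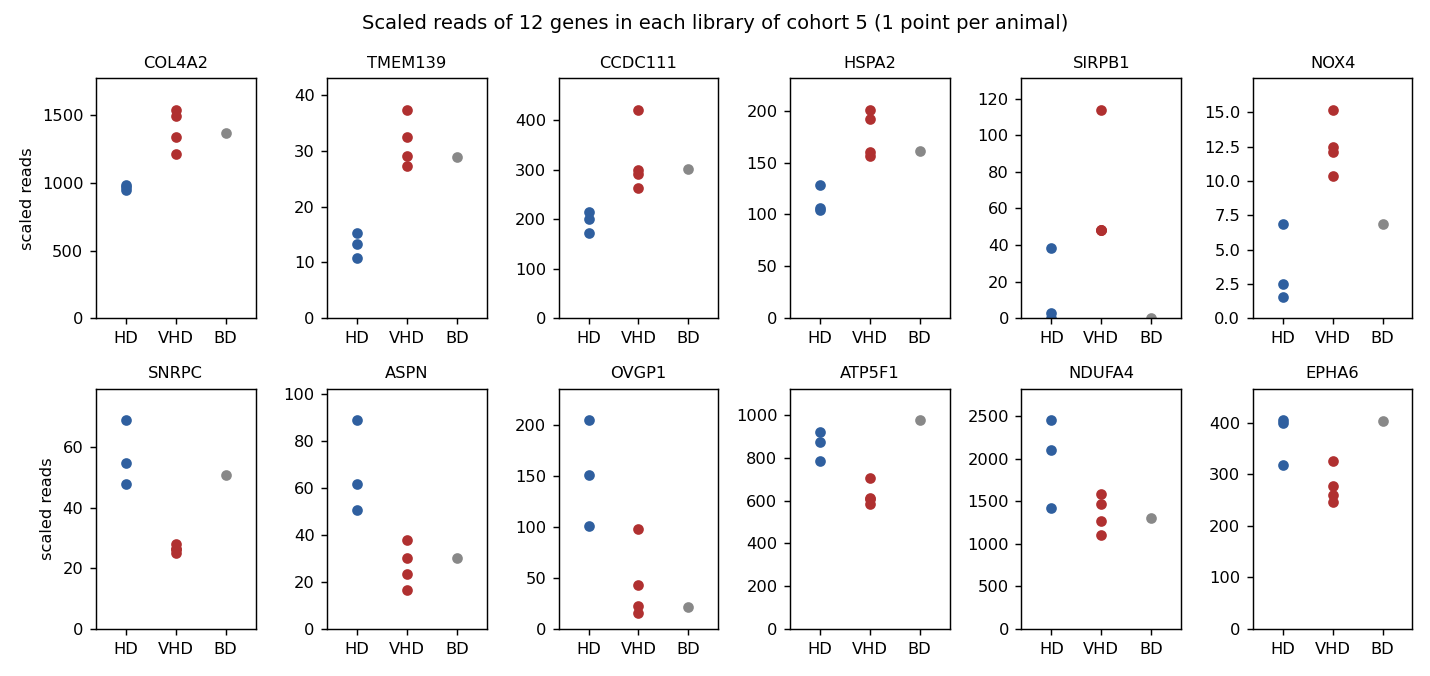
Scaled reads (vertical axes, each from 0) of 12 genes named in the text, with 1 point per animal of cohort 5 in HD (blue), VHD (red) and BD (grey). The upper row shows genes higher in VHD and the lower row genes lower in VHD, and HD and VHD values overlap only for NDUFA4 and EPHA6.

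OVGP1 and ATP5F1 are near neighbours on chromosome 1, at 111995471 to 112009149 and 112030533 to 112043548, 21.4 kb apart with WDR77 between them. OVGP1, a glycoprotein first known from the oviduct, was at 22.6, 15.2, 98.6 and 43.0 in VHD against 205, 151 and 101 in HD (-2.03 ± 0.49), and the BD animal was at 22.0. All 8 of its measured exons were lower. Exons 7 and 8 reached 5 scaled reads only in HD libraries, and exons 2, 3, 4, 5 and 9 only in HD libraries and VHD replicate 3. The exon filter thus favours lower VHD values here, and the exons are parts of the gene total by which OVGP1 was picked. VHD replicate 3 nearly reached HD replicate 3, and without it the OVGP1 difference was -2.52. ATP5F1, a stalk subunit of the mitochondrial ATP synthase, was at 583, 613, 610 and 705 against 923, 876 and 788 (-0.46 ± 0.11), with BD at 976. WDR77 differed by -0.08.

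The ATP5F1 difference was uneven over the gene. In exon 3, of 146 bases, the values were 41.6, 45.9, 57.3 and 62.4 in VHD and 160, 130 and 132 in HD, a log2 difference of -1.44. In exons 4, 5 and 6 the groups overlapped, with differences of 0.02, 0.08 and 0.21. Exon 7, the longest, was at 147, 125, 117 and 206 in VHD against 205, 197 and 162 in HD (-0.36), and exon 1 differed by -0.55, both with overlap. Exon 2, of 37 bases, was lower as well (-1.71), with 3.64 in VHD replicate 3 against 69.9 to 87.6 in the other VHD libraries and 112 to 147 in HD. One end of WDR77 overlaps the first exon of ATP5F1, so reads of that exon may belong to either gene. Across all 30 libraries exon 3 was at 37.1 to 62.4 in 25 and at 130 to 195 in 5, with none between, a look that was taken after the values were seen. Those 5 were the 3 HD animals and the BD animal of cohort 5 and 1 LD animal of cohort 7a, whereas the HD animals of cohort 7a were at 56.7 and 46.7.

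**Figure D5:**
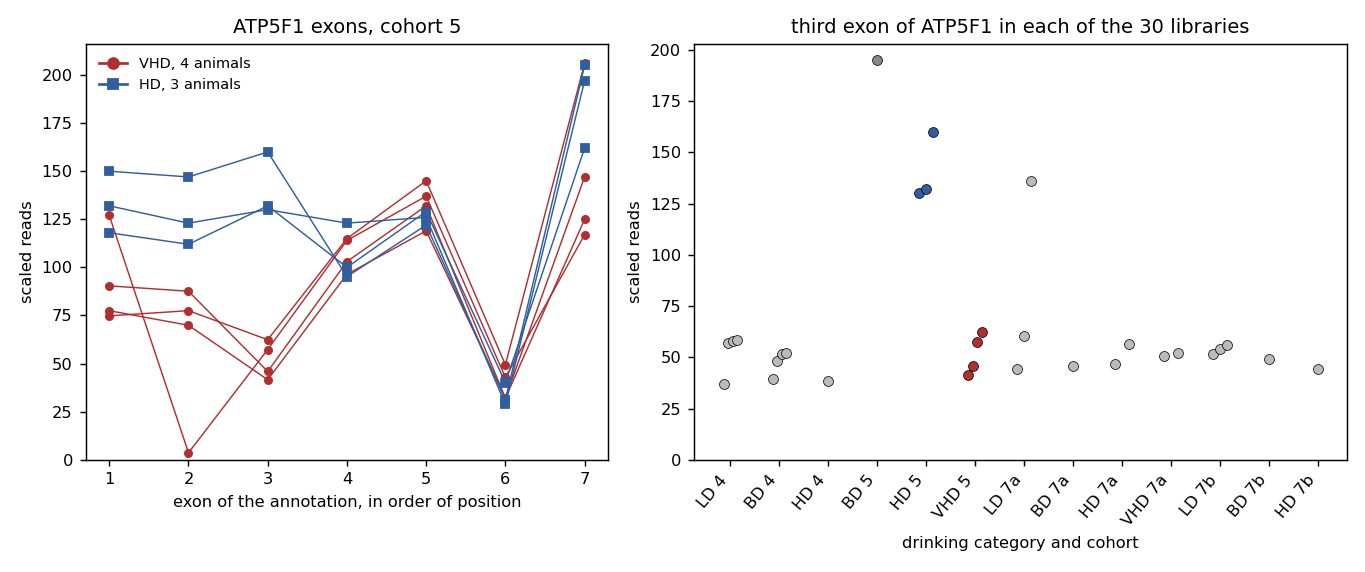
Left, scaled reads of the 7 exons of ATP5F1 in order of position, with 1 line per animal of cohort 5 (circles VHD, squares HD). Right, scaled reads of exon 3 in each of the 30 libraries by drinking category and cohort, with cohort 5 coloured as HD blue, VHD red and BD dark grey. On the left the groups part in exons 2 and 3 and meet in exons 4 to 6, and on the right 25 libraries are at or below 62.4 and 5 at or above 130.

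Nuclear genes of oxidative phosphorylation, the subunits of the mitochondrial respiratory chain and ATP synthase, were mostly lower in VHD. Of 36 measured genes 31 were lower, beside 50.6% of all genes, with a median of -0.15, 4 at an unadjusted p under 0.05 beside 0.877% and 8 without overlap beside 1.66%. Apart from ATP5F1 the 4 were NDUFA4 (-0.53 ± 0.17), NDUFA12 (-0.47 ± 0.16) and NDUFA1 (-0.32 ± 0.14). NDUFA4 was at 1470, 1100, 1590 and 1270 in VHD against 2100, 2450 and 1420 in HD, with HD replicate 3 inside the VHD range. NDUFA12, an accessory subunit of complex I, was at 221, 166, 185 and 226 against 259, 320 and 247. Single members ran from -0.53 to 0.13. The list median was -0.07 without HD replicate 1. In cohort 7a 25 of the 36 were higher in VHD (beside 49.9% of all genes) with a median of 0.04. NDUFA4 was lower there too (1450 and 1380 against 1950 and 1780, -0.40 ± 0.12).

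Ribosomal protein genes had 28 of 42 lower (beside 50.6% of all genes), with a median of -0.04 and 2 at an unadjusted p under 0.05 (beside 0.877%). These were RPS24, at -0.41 ± 0.15, and RPL24, at -0.33 ± 0.12. The sign of the list median turned to 0.006 without HD replicate 3 and to 0.005 without VHD replicate 2. Cholesterol synthesis genes, whose product is a main lipid of myelin, had 18 of 22 higher (beside 49.4% of all genes) with a median of 0.10. With the myelin level as a term the median was 0.03 and 10 of 22 were lower. SC5DL, a late enzyme of the pathway, was at 1540, 1560, 1460 and 1380 against 1340, 1270 and 1230 (0.21 ± 0.10), and went to 0.08 with the myelin level as a term, and MVD was higher by 0.41 ± 0.20. The list median was 0.000625 without VHD replicate 2. Lysosomal genes had 17 of 22 higher (beside 49.4%) with a median of 0.04, led by AGA, an enzyme that breaks down glycoproteins, at 143, 152, 131 and 135 against 121, 85.0 and 99.5 (0.47 ± 0.17).

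Receptors and channels on which ethanol acts differed little. Glutamate receptors had 14 of 21 lower (beside 50.6% of all genes) with a median of -0.05. GRM8, a presynaptic metabotropic receptor, was lower by 0.38 ± 0.15 on the log2 scale, and the NMDA receptor subunit GRIN2B differed by -0.08 with a 95% interval of -0.31 to 0.15. GABA and glycine receptors had 11 of 14 lower (beside 50.6%) with a median of -0.06. GABRE, the epsilon subunit, was instead higher, at 40.5, 69.2, 90.2 and 50.3 against 30.8, 18.5 and 41.3 (1.03 ± 0.33), with VHD replicate 1 below HD replicate 3. GABRA2, the alpha-2 subunit often studied in alcohol use, was at 1750, 1430, 1130 and 1450 against 1580, 1660 and 1500, with an interval of -0.44 to 0.14. Potassium channels had a median of -0.03 and presynaptic release genes of -0.03, and no member of either list had an unadjusted p under 0.05.

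The peptides, stress genes and activity genes named here did not separate the groups. Of 32 neuropeptide genes, 1 not named here had all VHD values below all HD values, beside 1.66% of all genes. NPY, a peptide with anxiolytic action, was at 106, 154, 204 and 70.9 in VHD and 84.8, 75.7 and 119 in HD, an interval of -0.23 to 1.10. The intervals were -0.15 to 0.73 for SST, -0.11 to 0.55 for PDYN, which encodes dynorphins, and -0.52 to 0.51 for CRH, the main stress peptide. BDNF had an interval of -0.48 to 0.39. FKBP5, a target of the glucocorticoid receptor, was at 166, 205, 84.6 and 193 against 126, 95.8 and 113, so VHD replicate 3 was the lowest of the 7 and the other 3 VHD libraries the highest (0.47 ± 0.27). The receptor itself, NR3C1, had an interval of -0.26 to 0.21. ALDH2, the main acetaldehyde enzyme, was at 1380, 1260, 1140 and 1570 against 1260, 1280 and 1280, an interval of -0.19 to 0.31. Of 30 immediate early genes, which follow neuronal activity, 12 were higher and 18 lower (beside 50.6% of all genes lower). Their median was -0.03, and none had an unadjusted p under 0.05. FOS was at 233, 338, 301 and 248 against 313, 229 and 504, and its sign turned without HD replicate 3.

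Chaperones, immune genes and regulators of chromatin and splicing were also centred near 0. HSPA4, an HSP110 chaperone, was at 2330, 2240, 2130 and 2150 against 2720, 2630 and 2590 (-0.26 ± 0.09, no overlap), and the co-chaperone BAG3 was higher by 0.62 ± 0.28. The median over 19 chaperone genes was -0.03. Interferon and antigen presentation genes had 12 higher and 12 lower, with the peptide transporter TAP2 lower by 0.48 ± 0.20 on the log2 scale. Medians were 0.03 for 31 histone and DNA modifying enzymes, -0.04 for 36 splicing factor genes, 0.06 for 18 clock genes and -0.01 for 20 NF-kappaB and cytokine genes. The other lists had medians of 0.13 (5 choroid plexus and ependymal markers), 0.06 (13 enzymes of ethanol, acetaldehyde and acetate), 0.03 (17 glucocorticoid response genes), 0.02 (18 postsynaptic scaffold genes), -0.06 (32 neuropeptide genes) and -0.003 (33 receptors of monoamines, acetylcholine and cannabinoids).

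The contrast in cohort 7a, in animals not used above, also gave 0 genes (0%) at an adjusted p under 0.05 in limma, with a smallest adjusted p of 0.0531, and 371 (2.93%) at an unadjusted p under 0.05. With 1 of its 4 animals left out, 3 to 103 genes had an adjusted p under 0.05, the most without HD replicate 1, where the lone HD animal is assumed to vary like the others. The difference between the cohorts was at an adjusted p under 0.05 for 0 genes (0%) and at an unadjusted p under 0.05 for 250 (1.97%). Differences had the same sign in both cohorts for 48.9% of all genes and for 157 of the 293 genes (53.6%). Of the 12 genes highest in rank upward 6 kept the sign, and of the 12 downward 8. OVGP1 was lower in VHD in both cohorts, at 18.2 and 115 against 93.8 and 220 in cohort 7a (-1.62 ± 0.72), where the groups overlapped. ASPN, lower in cohort 5, was at 41.7 and 45.4 against 36.8 and 29.9 in cohort 7a (0.38 ± 0.33), and the cohorts differed by -1.68 ± 0.48. SCEL, a protein of cornified epithelia, was lower in VHD of cohort 5 and higher in VHD of cohort 7a (47.0 and 93.6 against 28.5 and 15.4), and the cohorts differed by -2.79 ± 0.62. FOS was higher in VHD of cohort 7a (428 and 497 against 226 and 310, 0.80 ± 0.20) and differed between the cohorts by -1.05 ± 0.37. All of these had an adjusted p of 1 for the difference between cohorts in limma.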

How the data were processed

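RNA of cortical area 32 was sequenced with a stranded, rRNA-depleted library on an Illumina instrument, per the labels' protocols. Software listed in the submitters' processing notes comprises STAR 2.3.0e, CASAVA, FastQC and edgeR. The build and the annotation were not given in the sources used here. The deposited gene and exon tables hold a normalized signal, in which the authors brought read numbers to one shared upper quartile. 100% of values in these libraries fell within 0.01 of a whole number of reads, 1 read being worth 0.662 to 1.54 scaled reads. Exon positions are printed as the deposited exon names give them.

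Genes with at least 10 scaled reads in at least 3 of the 7 libraries were tested as log2(value + 1) with limma 3.58.1 in R 4.3.3 (trend, two-sided, Benjamini-Hochberg at 0.05). The test was run in cohort 5, in cohort 7a and as an interaction, and tested on simulated data. Since each library is 1 animal, p-values measure the spread between animals; fold differences understate low genes. edgeR 4.0.16 and DESeq2 1.42.0 on recovered reads, pseudocounts of 0.25 and 4, other filters, scaling, weights, all 30 libraries and leaving out each library were alternatives. Exons with at least 5 scaled reads in at least 3 libraries were described without a test.

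Genes named are the 12 with the smallest p and the 5 largest non-overlapping differences per direction, up to 3 per list, and 17 regardless of value; Ensembl identifiers without a symbol were skipped and SLC17A7 was not analysed here. PDGFRA, OLIG2, C1QB, NDUFA1, MVD, COL4A1 and WDR77 lie outside this rule and were named after their values were seen. Of 707 entries in 30 lists 637 were in the table, and the blood cell list had no tested member. Some members are counted but not reported here by name or in the sums and plots of single genes. The comparison and the lists were chosen with earlier results of these data known. Sequences were not used here.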

Additional observations from a re-analysis of the deposited data

Results flagged for a closer look

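In each of 120 sets of 4 VHD values (90 named genes and 30 lists), the gap from the highest or lowest animal to its nearest neighbour was set against the range. 5 sets had a gap beyond the 95% limit, and about 1 in 20 would by chance. SIRPB1 in VHD replicate 3 was the highest, at 6.85 on the log2 scale. CDK18 in VHD replicate 4 was the lowest, at 7.63, with 197 scaled reads against 394 to 412 in the other 3. GFAP in VHD replicate 1 was the highest, at 14.2. The summed immediate early genes were lowest in VHD replicate 4, at 9215 scaled reads against 9805 to 9874, and the summed clock genes lowest in VHD replicate 2, at 17760 against 18200 to 18210.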

How the results depend on the processing

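The number of genes at an adjusted p under 0.05 in cohort 5 was 0 under pseudocounts of 0.25 and 4, no filter, a minimum of 100, median-of-ratios scaling, array weights, edgeR, DESeq2 and all fits over 30 libraries. With 1 library left out it was 0 to 1, the 1 being SIRPB1 without HD replicate 1. The number at an unadjusted p under 0.05 was 207 to 439 under the settings that kept all 7 libraries and 244 to 445 with 1 left out, the highest without VHD replicate 1. Genes without overlap numbered 739 to 1416 with 1 library left out, against 439, since fewer libraries overlap less. In cohort 7a, where leaving out 1 of 4 leaves a lone animal that is assumed to vary like the others, the adjusted count was 3 to 103 and the unadjusted 230 to 1377, the highest without HD replicate 1. For the difference between cohorts the unadjusted count was 181 to 539, highest without HD replicate 1 of cohort 7a, and the adjusted count 0. No paired analysis was possible because the labels carry no number that pairs animals of the groups.

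Of 1669 gene values under alternatives, 37 in 12 of the 90 named genes turned sign, and the cause was not tested. These numbers leave out the 18 myelin genes in the fit with the myelin level as a term. In that fit 9 of the 18 were higher in VHD and their median was -0.006. The term is the mean level of these same genes, so values centred near 0 follow from the fit itself. The fit with category plus cohort gives 1 VHD minus HD difference shared by all cohorts, cohort 7a among them, and not that of cohort 5 alone. Its values were 0.0789 for SCEL, 0.0279 for CRH, 0.143 for FOS, -0.0699 for FKBP5 and 0.0779 for NR3C1. In cohort 7a alone these genes were at 1.62, -0.01, 0.80, -0.60 and 0.21, in the same order. Library sets were formed here as 4 runs of 8 consecutive library numbers, and the labels do not name them as batches. With these sets as a term the values were -0.110 for TF, 0.0573 for CRH and 0.0122 for BDNF. With the myelin level, added after the data were seen, they were 0.0473 for CRH, -0.209 for NR4A2 and -0.177 for GFAP. Array weights gave 0.122 for BDNF, -0.0650 for NR4A2 and 0.0239 for GAD1, edgeR 0.0474 for CRH and 0.00320 for GAD1, and DESeq2 0.0398 for CRH. With 1 library left out, differences ran from -0.00603 to 0.177 for TF, -0.00345 to 0.371 for CDK18, -0.107 to 0.151 for CRH, -0.238 to 0.0615 for BDNF, -0.518 to 0.0507 for FOS, -0.205 to 0.334 for NR4A2, -0.0982 to 0.0399 for NR3C1, -0.0181 to 0.136 for ALDH2, -0.0291 to 0.246 for GFAP and -0.0521 to 0.0601 for GAD1. Of 550 list medians, which leave out that of the myelin list in the same fit, 21 moved beyond the spread between animals. None of the 21 was that of the myelin list. The myelin median was 0.41 to 0.81 over the alternatives other than the fit in which the myelin level itself was a term. The 0.41 came from the fit with category plus cohort.

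Depth and the number of animals limit what could be seen. AIF1, at 27.7 to 71.5 scaled reads, had a 95% interval of -0.89 to 0.37, and NOX4, at 1.54 to 15.2, one of 0.59 to 2.81.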

Other observations

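Genes of vessel walls and meninges were mostly higher in VHD of cohort 7a. Of 19 mural and fibroblast markers 15 were higher in VHD there (beside 49.9% of all genes), with a median of 0.93 and 10 at an unadjusted p under 0.05 in limma (beside 2.93% of all genes), none at an adjusted p under 0.05. The summed reads of the list were 9623 and 8656 in VHD and 5247 and 5103 in HD of cohort 7a. In cohort 5 they were 4715, 7639, 6904 and 9215 in VHD and 5874, 4117 and 12690 in HD, so the spread within a group was larger there than the gap in cohort 7a. The median of the list in cohort 5 was 0.002 with all 7 animals and 0.55 without HD replicate 3. Ribosomal protein genes were higher in VHD of cohort 7a for 35 of 42 (beside 49.9% of all genes), with a median of 0.16. Immediate early genes were higher there for 24 of 30 (beside 49.9%), with a median of 0.18. Unadjusted p in limma was under 0.05 for 3 of the 42 and 4 of the 30 (beside 2.93% of all genes). These lists share their animals with the cohort 7a values given above.

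The BD animal of cohort 5 was above all 3 HD animals for 8 of the 12 genes with the smallest p upward and below all 4 VHD animals for 5. For the 12 downward it was above all 4 VHD animals for 6. These genes were picked by the same HD and VHD values, so a library that was not used can lie outside a group for that reason alone. The shares over all genes were not counted, and nothing is drawn from these counts about the BD category.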
